A study of Emiliania huxleyi CCMP1516 with 36 samples.

Results

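The cultures described here are those of the coccolithophore Emiliania huxleyi that received 2-heptyl-4-quinolone (HHQ) at 100 ng/ml, compared between 72 h and 24 h after the addition. Members were chosen by sample title alone: the 4 libraries titled with 100 ng/ml HHQ and 72 h against the 4 titled with the same dose and 24 h, 8 of the 36 libraries of the series. All were axenic cultures of strain CCMP2090, grown as 2 L batches in f/2-Si medium under 14 h of light and 10 h of dark, and HHQ was carried by dimethyl sulfoxide at 0.002%. The groups set beside them are the vehicle cultures (dimethyl sulfoxide alone at 0.002%) and the cultures with HHQ at 10 ng/ml, 4 libraries each at 24 and 72 h, and the 4 parent cultures from which all others were inoculated. The rest of the 36 libraries come from cultures with HHQ at 1 ng/ml, 4 libraries each at 24 and 72 h. They are part of the scaling and the fit over all 36 libraries, and are drawn in the plot of replication gene levels by group. Changes at this dose are not described here. The design text calls the 4 libraries of a group biological replicate cultures. Whether a 72 h library came from the same bottle as the 24 h library of the same number is not stated.

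E. huxleyi is a unicellular marine alga that blooms over wide areas of the ocean. Its antenna is built from Lhcf proteins, which bind fucoxanthin and chlorophyll and pass light energy to the photosystems. HHQ is an alkylquinolone that some bacteria make as a signal and as a precursor of other quinolones. Before a cell divides, the replicative DNA polymerases copy its genome with the help of a clamp loader, replication factor C, and transcripts of these proteins are commonly low in cells that do not divide.

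Poly(A) RNA was counted per gene with Salmon, and the deposited values are estimated counts. The 8 libraries hold between 12057578 and 25931289 counts, and between 22350 and 26163 genes reached 10 counts in each. Levels are given as CPM, counts per 1000000 counts of a library, after scaling with edgeR's trimmed mean of M values, changes as log2 fold changes ± standard error (SE), and means ± SD over 4 libraries. A gene is called changed at a Benjamini-Hochberg adjusted p under 0.05 in edgeR's quasi-likelihood test, with 1 fit over all 36 libraries. In these bulk samples fewer cells of a type and less RNA per cell cannot be told apart. All 4 flagellar genes (DNAL1, DYNH1, FAP9 and IFT27), markers of the flagellated cell stage, had 0 counts in all 36 libraries.

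The replicates did not scatter evenly. At 24 h replicates 1 to 3 correlated with each other at 0.96 to 0.97 in log2 CPM and gave a chi-square of 6.55 to 13.8 per gene. Replicate 4 gave a chi-square of 84.2 to 91.2 against them but still correlated with them at 0.94 to 0.96. The chi-square also grows with depth, and replicate 4 held the most counts of these 24 h libraries (21010959). At 72 h the chi-square per gene was 18.5 between replicates 1 and 2 and 22.6 between replicates 3 and 4, but 94.0 to 223 from the first pair to the second. The labels name no batch behind these sets. In deviations from group means, 24 h replicate 4 matched 72 h replicate 2 best at 100 ng/ml, at 10 ng/ml and in the vehicle. In each of these treatments 24 h replicates 1 to 3 matched 72 h replicate 3 or 4 best. If the sets are shared between the times, they are spread unevenly over them, and set and time cannot be fully told apart. Calls lost with replicates 3 and 4 alone at 72 h are given beside the results, and the part of the sets in each result was not tested.

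From 24 to 72 h under 100 ng/ml HHQ, 2076 of 26494 genes tested changed (7.84%), 1261 of them higher (4.76%) and 815 lower (3.08%). The larger changes were upward: 1030 genes rose and 214 fell by at least a factor of 2. The 4 and 4 libraries did not overlap for 4818 genes (18.2%), 2311 with all 72 h libraries above all 24 h libraries (8.72%) and 2507 with all below (9.46%), and 1649 of the called genes were among them. The median log2 fold change of all genes was −0.05 and moved to −0.12 with library totals as the scale, under which 792 genes rose and 232 fell. With replicates 1 to 3 at 24 h against replicates 3 and 4 at 72 h, 895 genes rose and 269 fell. Replicate 4 at 24 h against replicates 1 and 2 at 72 h, with the lone library assumed to vary like the other groups, left 58 higher and 4 lower. Without replicate 1 or 2 at 24 h 1281 and 1151 genes were called, and without replicate 1 at 72 h 1360.

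In vehicle cultures 1884 genes changed with time (7.11%; 3.92% higher and 3.19% lower) and at 10 ng/ml 3268 did (12.3%; 5.33% higher and 7.01% lower). Of the 1261 genes that rose at 100 ng/ml, 85 rose and 60 fell in the vehicle (6.74% and 4.76%), and 127 rose and 253 fell at 10 ng/ml (10.1% and 20.1%). Of the 815 that fell, 63 rose and 54 fell in the vehicle (7.73% and 6.63%), and 63 rose and 116 fell at 10 ng/ml (7.73% and 14.2%). The difference itself was tested as an interaction, the change with time at 100 ng/ml minus the change in the other treatment. It was called for 1597 genes against the vehicle (6.03%), 894 more positive at 100 ng/ml (3.37%) and 703 more negative (2.65%), and for 2090 against 10 ng/ml (7.89%), 1289 and 801. With library totals the median of these differences over all genes moved from −0.08 to 0.23 against the vehicle and from −0.04 to 0.39 against 10 ng/ml, and the split became 882 to 219 and 1533 to 223. With same-numbered libraries of 1 time treated as a block, an alternative chosen after seeing the data, 3087 and 3650 genes were called. Median differences of gene groups are to be read against the shifts of the scale.

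**Figure D1:**
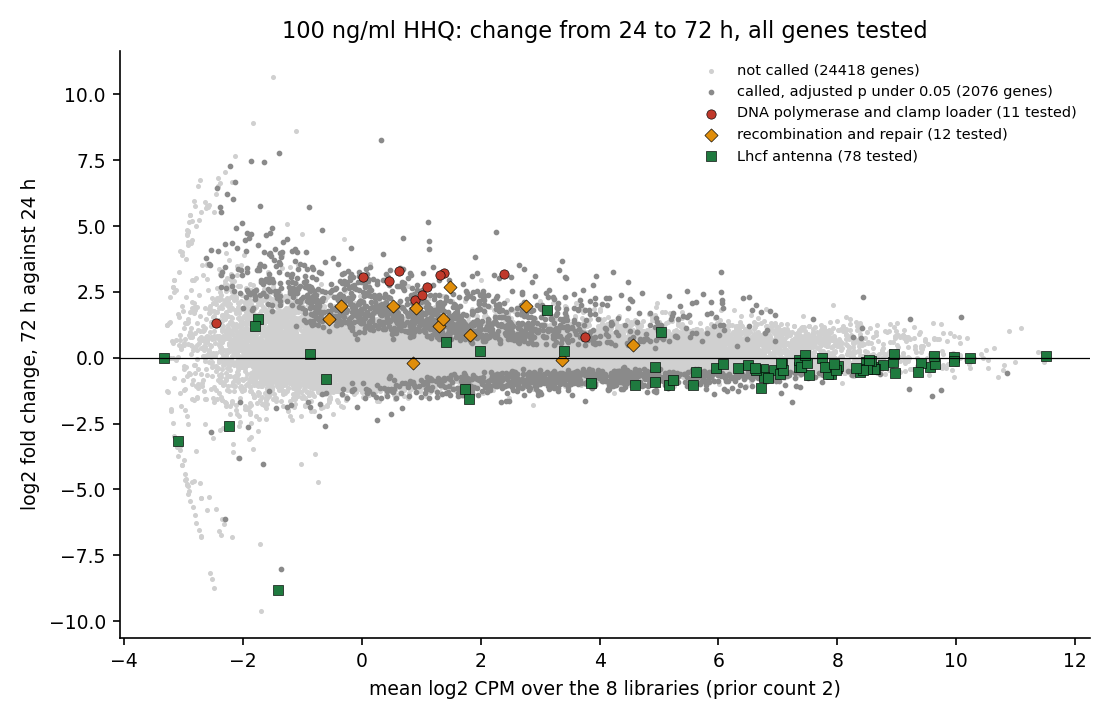
Each point is 1 of the 26494 genes tested: the x axis gives the mean log2 CPM over the 8 libraries and the y axis the log2 fold change of 72 h against 24 h at 100 ng/ml HHQ, with called genes in dark grey. Of the DNA polymerase and clamp loader genes (red circles) 10 of 11 rose, while the Lhcf genes (green squares) lie mostly between 0 and −1.

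The DNA replication genes gave the clearest rise. Of 11 tested genes for replicative DNA polymerases and the clamp loader, 10 rose and 0 fell, against 4.76% higher and 3.08% lower among all genes, with a median log2 fold change of 2.92 against −0.05. Their levels summed to 14.7, 13.9, 23.6 and 18.2 CPM in replicates 1 to 4 at 24 h and to 62.6, 59.7, 88.9 and 83.3 CPM at 72 h. Every 72 h library lay above every 24 h library. The same sum was 134 to 152 CPM in the parent cultures, 7.81 to 11.1 and 8.75 to 10.7 CPM in the vehicle at 24 and 72 h, and 82.0 to 125 and then 15.9 to 22.2 CPM at 10 ng/ml. At 10 ng/ml the order of the times was thus the reverse: high at 24 h and low at 72 h.

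POLA1, the catalytic subunit of DNA polymerase alpha, which starts new strands with primase, stood at 1.63, 1.10, 2.54 and 1.76 CPM at 24 h and at 12.9, 11.8, 21.9 and 16.8 CPM at 72 h. The 24 h values rest on 26 or more counts per library. It rose 9.02-fold (log2 fold change 3.17 ± 0.26, adjusted p = 1.38e-09). POLA2, its accessory subunit, went from 0.448 ± 0.128 to 4.45 ± 1.16 CPM, with 50 counts in all at 24 h and 518 at 72 h (3.30 ± 0.34). No 72 h library of either gene overlapped with a 24 h library.

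POLD1-1 and POLD1-2 name copies of the catalytic subunit of DNA polymerase delta, which copies the lagging strand, and reads may be divided between them, so the value of each is uncertain. POLD1-1 was at 0.799, 0.634, 1.13 and 0.715 CPM at 24 h and at 6.81, 5.30, 9.95 and 8.72 CPM at 72 h (3.23 ± 0.26, adjusted p = 1.38e-09). POLD1-2 rose by 3.13 ± 0.30, and POLD2, the second subunit of delta, by 2.19 ± 0.29. Both showed no overlap between the times. POLE1 is the catalytic subunit for the leading strand, in polymerase epsilon, and was at 0.738, 0.254, 1.90 and 0.626 CPM and then at 3.81, 6.29, 6.33 and 6.08 CPM (2.69 ± 0.36). POLE3, an accessory subunit of epsilon, was the member not called, at 7 counts over the 4 libraries at 24 h and 22 at 72 h (1.32 ± 1.09, adjusted p = 0.50).

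All 4 tested genes of replication factor C, the clamp loader that places the sliding clamp on DNA, rose. RFC2 went from 0.615, 0.676, 1.59 and 0.596 CPM to 4.53, 4.55, 4.19 and 4.46 CPM (2.37 ± 0.42, adjusted p = 3.44e-04). RFC3 stood at 4, 7, 11 and 13 counts at 24 h and at 59, 27, 122 and 95 counts at 72 h (3.05 ± 0.50). RFC5 rose by 2.92 ± 0.43, and its 24 h libraries were at 0.338, 0.254, 1.31 and 0.179 CPM, with replicate 3 above the others. RFC1, the large subunit, was already at 10.2 ± 1.51 CPM at 24 h and reached 17.9 ± 1.20 CPM (0.81 ± 0.18, adjusted p = 0.00411), the smallest of these rises. TYMK, named for the thymidylate kinase that makes a precursor of dTTP, was at 0.510 ± 0.275 and 1.91 ± 0.881 CPM and missed the threshold (1.90 ± 0.61, adjusted p = 0.0506).

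The rise of the replication genes differed from both other time courses. In the vehicle edgeR called 0 of the 11 genes (1 at an unadjusted p under 0.05), with a median of 0.01, and 8 of 11 were called higher in the interaction (3.37% of all genes). At 10 ng/ml 10 of 11 fell (7.01% of all genes), with a median of −2.58, and 10 of 11 were called higher in the interaction (4.87% of all genes), with a median difference of 5.15. POLA1, for example, was at 27.6 ± 5.30 CPM at 24 h and 4.45 ± 0.485 CPM at 72 h with 10 ng/ml, and at 1.99 ± 0.40 and 2.13 ± 0.461 CPM in the vehicle. Its difference of changes was 3.07 ± 0.36 against the vehicle (adjusted p = 2.14e-06) and 5.80 ± 0.36 against 10 ng/ml (adjusted p = 1.18e-12). Between 100 ng/ml and vehicle cultures of the same time 41.1% of all genes were called at 24 h and 46.2% at 72 h; there POLA1 was at −0.17 ± 0.26 at 24 h (adjusted p = 0.63) and 2.90 ± 0.26 at 72 h, and RFC1 was higher at both times, by 2.05 ± 0.19 and 2.44 ± 0.19. These comparisons share libraries with the change over time, so they are values side by side and not separate evidence.

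All 10 called replication genes stayed called when any 1 library was left out and in replicates 1 to 3 at 24 h against replicates 3 and 4 at 72 h (median 2.95), and 6 were called in replicate 4 at 24 h against replicates 1 and 2 at 72 h (median 2.86); both splits were chosen after seeing the data. With library totals as the scale 9 were called, with a median of 2.86. In the interaction against the vehicle 8 were called with library totals, 6 with replicates 1 and 2 alone at 72 h, 5 with a minimum change of 1 on the log2 scale and 3 in replicate 4 at 24 h against replicates 1 and 2 at 72 h. Against 10 ng/ml these counts were 10, 10, 10 and 9.

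**Figure D2:**
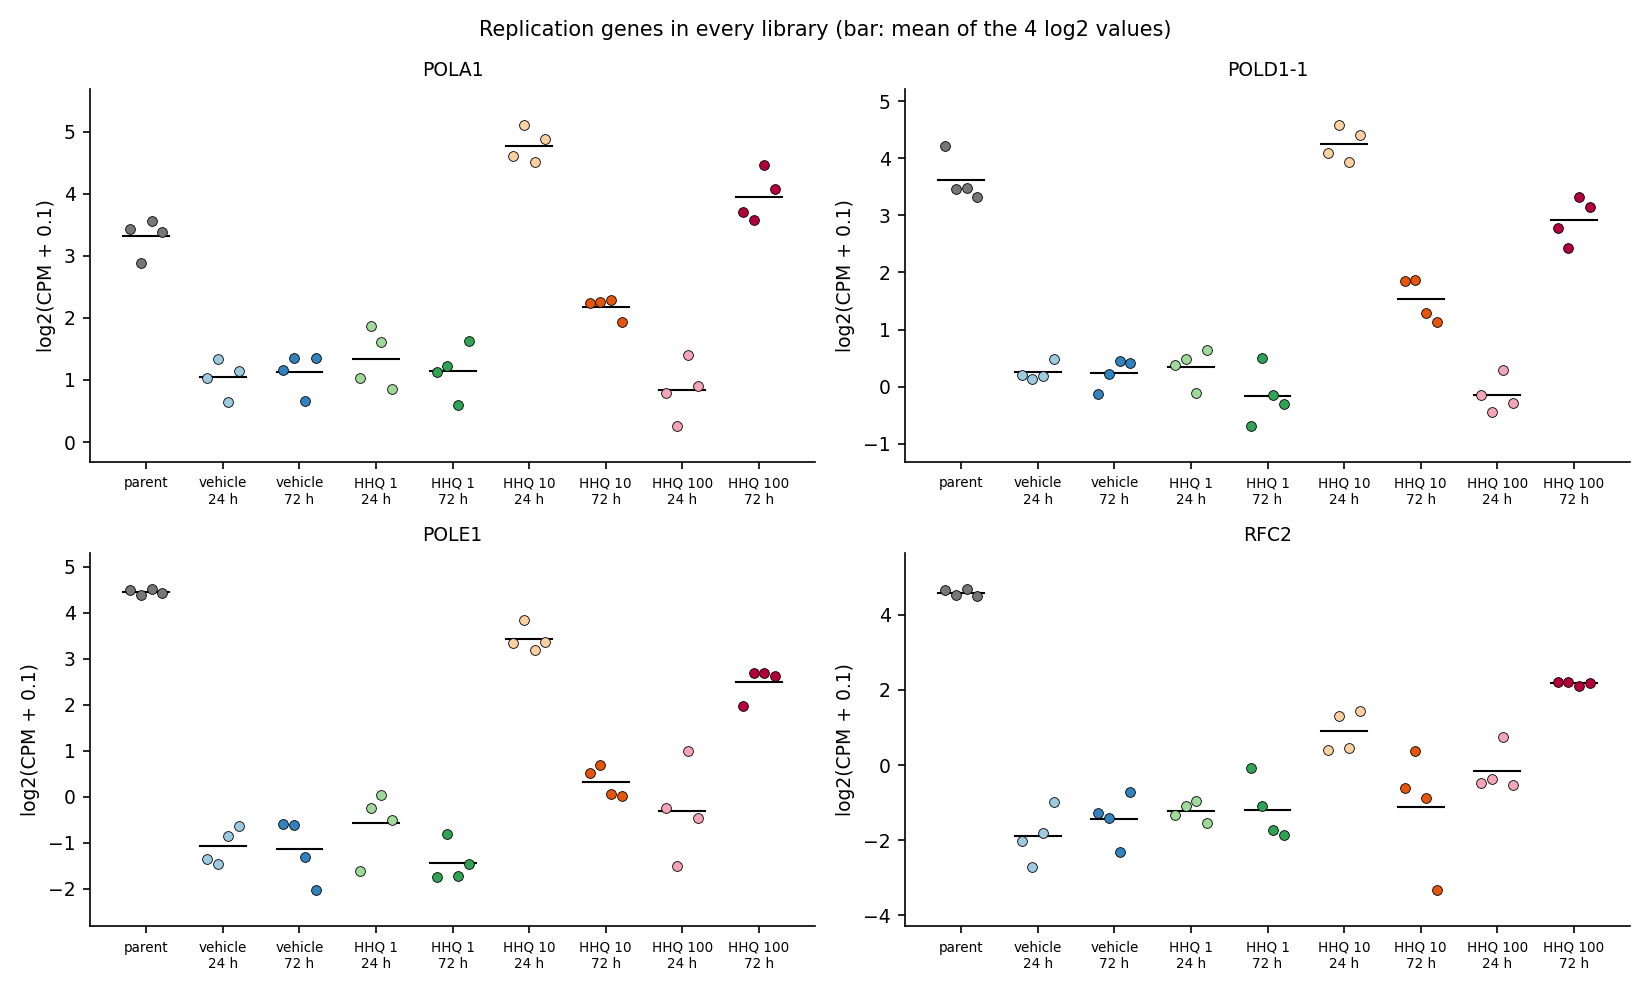
Levels of POLA1, POLD1-1, POLE1 and RFC2 in every library of the 9 groups, as log2(CPM + 0.1), with 1 point per library and a bar at the mean of the 4 log2 values. In each panel the 72 h libraries at 100 ng/ml (dark red) lie above the 24 h libraries (pink), and the 10 ng/ml libraries (orange) are high at 24 h and mostly low at 72 h.

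Of 12 tested genes of DNA recombination and repair 6 rose and 0 fell (4.76% and 3.08% of all genes), with a median of 1.47 against −0.05 for all genes. The gene mutS, named for the protein that recognises mismatched bases, was at 1.05, 1.06, 1.04 and 1.01 CPM at 24 h and at 6.4, 5.30, 7.75 and 7.66 CPM at 72 h (2.70 ± 0.56, adjusted p = 0.00247). The groups did not overlap. Top6A and Top6B, the subunits of topoisomerase VI, which passes one DNA duplex through another, rose by 1.89 ± 0.39 and 1.49 ± 0.25. Top6B reached 4.16 ± 0.798 CPM, against 4.08 ± 1.49 CPM in the vehicle at 72 h.

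LIG, a DNA ligase that seals nicks, went from 2.58, 2.28, 3.76 and 5.33 CPM to 15.7, 14.8, 12.1 and 11.6 CPM (1.95 ± 0.47). Spo11, which makes the double-strand breaks of meiosis in other eukaryotes, rose by 1.21 ± 0.35. DMC1, the meiotic recombinase, was at −0.20 ± 0.34 (adjusted p = 0.771). The list's count was 0 in the vehicle (3 members at an unadjusted p under 0.05) and 4 lower at 10 ng/ml (7.01% of all genes). The interaction was called for 3 members against the vehicle (3.37% of all genes higher) and 6 against 10 ng/ml (4.87%), all higher. With the block within each time it was called higher for 5 against the vehicle. The count of 6 became 4 with library totals and 0 in replicate 4 at 24 h against replicates 1 and 2 at 72 h (median 1.28).

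**Figure D3:**
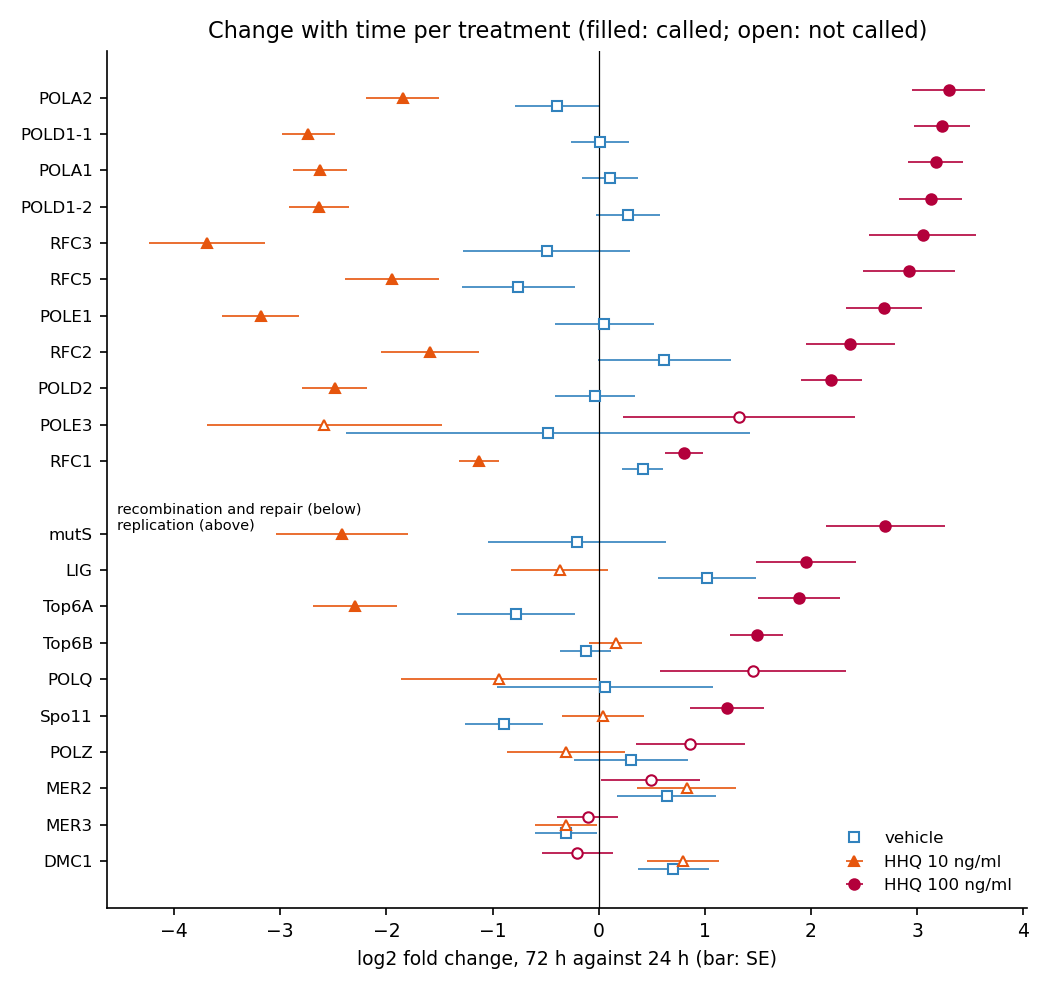
Log2 fold change of 72 h against 24 h with its SE for each replication gene (upper block) and 10 of the 12 recombination and repair genes (lower block) in the vehicle (squares), 10 ng/ml HHQ (triangles) and 100 ng/ml HHQ (circles), filled where called. The 100 ng/ml points of the replication genes all lie above 0, the 10 ng/ml points all below 0, and the vehicle points on either side of 0.

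Carbon metabolism changed at single enzymes. Of 10 tested genes of the tricarboxylic acid cycle and the reactions that refill it, 4 rose and 0 fell (4.76% and 3.08% of all genes), with a median of 0.76. The count was 2 with replicates 3 and 4 alone at 72 h, and 1 in each of the splits of the sets. PYC1, named for pyruvate carboxylase, which makes oxaloacetate from pyruvate, was at 7.38, 6.42, 16 and 7.57 CPM at 24 h and at 39.2, 38.0, 53.8 and 62.4 CPM at 72 h. All 72 h libraries were above all 24 h libraries, and the rise was 5.19-fold (2.38 ± 0.27, adjusted p = 6.10e-07). It fell in the vehicle, from 2.11 ± 0.319 to 1.06 ± 0.121 CPM, and at 10 ng/ml, from 10.7 ± 2.85 to 3.02 ± 0.368 CPM, while the parent cultures were at 197 ± 9.12 CPM. The difference of changes was 3.35 ± 0.40 against the vehicle and 4.19 ± 0.39 against 10 ng/ml, and PYC1 stayed called under every alternative setting tried. The second gene, PYC, was not called (−0.37 ± 0.24, adjusted p = 0.377).

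IDH1, an isocitrate dehydrogenase, went from 10.6, 12.3, 41.3 and 21.9 CPM to 41.7, 38.9, 58.3 and 82.9 CPM, where replicate 3 at 24 h overlapped with replicate 2 at 72 h (1.37 ± 0.43, adjusted p = 0.0471). The call was lost in many settings, among them library totals (adjusted p = 0.0936), most fits without 1 library and within replicates 1 and 2 at 72 h (0.95). With the block within each time, an alternative chosen after seeing the data, its difference of changes was 2.96 against the vehicle (adjusted p = 3.13e-06). Against 10 ng/ml it was 3.52 there (adjusted p = 5.93e-08). ICL1, the isocitrate lyase of the glyoxylate cycle, rose by 0.77 ± 0.20 and PEPCK_1, of gluconeogenesis, by 1.04 ± 0.30. Both also rose in the vehicle, by 1.26 ± 0.20 and 1.55 ± 0.30, and at 10 ng/ml, by 1.60 ± 0.20 and 2.04 ± 0.30, and their differences of changes were not called, but with the block within each time both were called against 10 ng/ml (adjusted p = 0.0435 and 0.00469). PEPCK_1 stood at 120 and 156 CPM in replicates 1 and 2 at 72 h and at 48.9 and 84.3 CPM in replicates 3 and 4, and its rise with the latter pair alone was 0.42 and not called. The call of ICL1 was lost there as well (0.54, adjusted p = 0.212).

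Of 19 glycolysis genes 3 rose and 0 fell (4.76% and 3.08% of all genes), with a median of 0.06 that changed sign to −0.10 with library totals. FBA2, a fructose-bisphosphate aldolase, had 12, 3, 2 and 3 counts at 24 h and 91, 41, 88 and 120 at 72 h. That is 0.369, 0.127, 0.0907 and 0.0894 CPM against 2.62, 2.55, 2.16 and 5.57 CPM, with no overlap (4.16 ± 0.62, adjusted p = 3.99e-05). It fell in the vehicle from 1.07 ± 0.318 to 0.231 ± 0.22 CPM, and the difference of changes was 6.33 ± 0.87 (adjusted p = 1.95e-05). The glycolysis genes 26PFK4 and GAP1, the latter for a glyceraldehyde-3-phosphate dehydrogenase, rose by 1.23 ± 0.29 and 0.82 ± 0.21, and GAP1 was not called with replicates 3 and 4 alone at 72 h (adjusted p = 0.0725). MAN1, a gene in no list, went from 2.07 ± 0.620 to 8.48 ± 2.60 CPM (2.04 ± 0.38) and fell in the vehicle, and its parent cultures were at 17.3 ± 1.26 CPM. In the pentose phosphate pathway edgeR called 0 of 6 genes (3 at an unadjusted p under 0.05, and 0 by DESeq2 and limma-voom).

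Among 15 tested genes for nitrate, nitrite, urea and glutamine, 5 rose and 1 fell (4.76% and 3.08% of all genes), with a median of 0.95 against −0.05 for all genes. With replicates 1 and 2 alone at 72 h the median was 0.23; 2 were called higher in replicates 1 to 3 at 24 h against replicates 3 and 4 at 72 h, and 1 in replicate 4 against replicates 1 and 2. Urease, which splits urea into ammonium and carbon dioxide, gave both of its named genes. URE2 was at 1.05, 1.18, 2.49 and 1.43 CPM at 24 h and at 5.68, 6.61, 9.07 and 7.94 CPM at 72 h (2.26 ± 0.28, adjusted p = 2.21e-06). The groups did not overlap. Its change was −0.43 ± 0.28 in the vehicle and −0.00 ± 0.27 at 10 ng/ml, neither called, and the difference of changes was 2.69 ± 0.39 and 2.26 ± 0.39, both called.

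URE1 had 0, 0, 4 and 0 counts at 24 h and 70, 20, 136 and 56 at 72 h, or 2.02, 1.25, 3.33 and 2.60 CPM at the later time. Its fitted log2 fold change of 5.73 ± 1.49 (adjusted p = 0.0135) rests on those 4 counts and is no measure of the size of the rise, and its differences of changes were not called (adjusted p = 0.111 and 0.0760). The call was lost without replicate 1 or 2 at 24 h (adjusted p = 0.0554 without replicate 1).

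Glutamine synthetase, which fixes ammonium on glutamate, has 5 named genes here, of which GLN1, GLN3 and GLN5 rose. GLN5 went from 1.72, 1.65, 1.77 and 2.35 CPM to 10.9, 20.6, 4.68 and 4.87 CPM (2.44 ± 0.37, adjusted p = 4.44e-05). Replicates 1 and 2 at 72 h were the high ones, but replicates 3 and 4 were also above every 24 h library. GLN5 rose in the vehicle (1.94 ± 0.38) and at 10 ng/ml (1.62 ± 0.38) as well, and its differences of changes were not called. GLN3, at 1.76 ± 0.408 and 4.12 ± 0.750 CPM, rose by 1.23 ± 0.35 (adjusted p = 0.0824 with replicates 3 and 4 alone at 72 h), and the difference from 10 ng/ml was called (1.84 ± 0.52, adjusted p = 0.0218). GLN4, at 334 ± 113 and 245 ± 72.3 CPM, was not called (−0.44 ± 0.24, adjusted p = 0.269).

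The nitrate transporter gene NRT1 was at 110, 134, 99.5 and 58.3 CPM at 24 h and at 226, 169, 246 and 217 CPM at 72 h, without overlap, and just missed the threshold (1.10 ± 0.35, adjusted p = 0.0503). NAR4 was the member that fell (−0.67 ± 0.18), as it did in the vehicle (−0.70 ± 0.18). NII1, a nitrite reductase gene, was at 14.5 ± 4.28 and 19.6 ± 3.99 CPM (adjusted p = 0.499), but it fell in the vehicle and at 10 ng/ml, and both differences of changes were called (1.77 ± 0.53 and 1.73 ± 0.51). The urea transporter gene DUR3, at 0.127 ± 0.104 and 0.25 ± 0.209 CPM, showed no called change, whereas it rose in the vehicle by 3.42 ± 0.77. The difference of changes was not called (adjusted p = 0.277). Of 13 tested ammonium transporter genes edgeR called 0 (4 at an unadjusted p under 0.05, 3 by DESeq2 and 1 by limma-voom). AMT13 stood at 154 ± 30.7 and 114 ± 29.2 CPM (−0.43 ± 0.20, adjusted p = 0.186), against a rise in the vehicle of 1.01 ± 0.20, and the difference of changes was −1.44 ± 0.28 (adjusted p = 0.00115). With replicates 3 and 4 alone at 72 h the difference was −0.78 and not called.

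**Figure D4:**
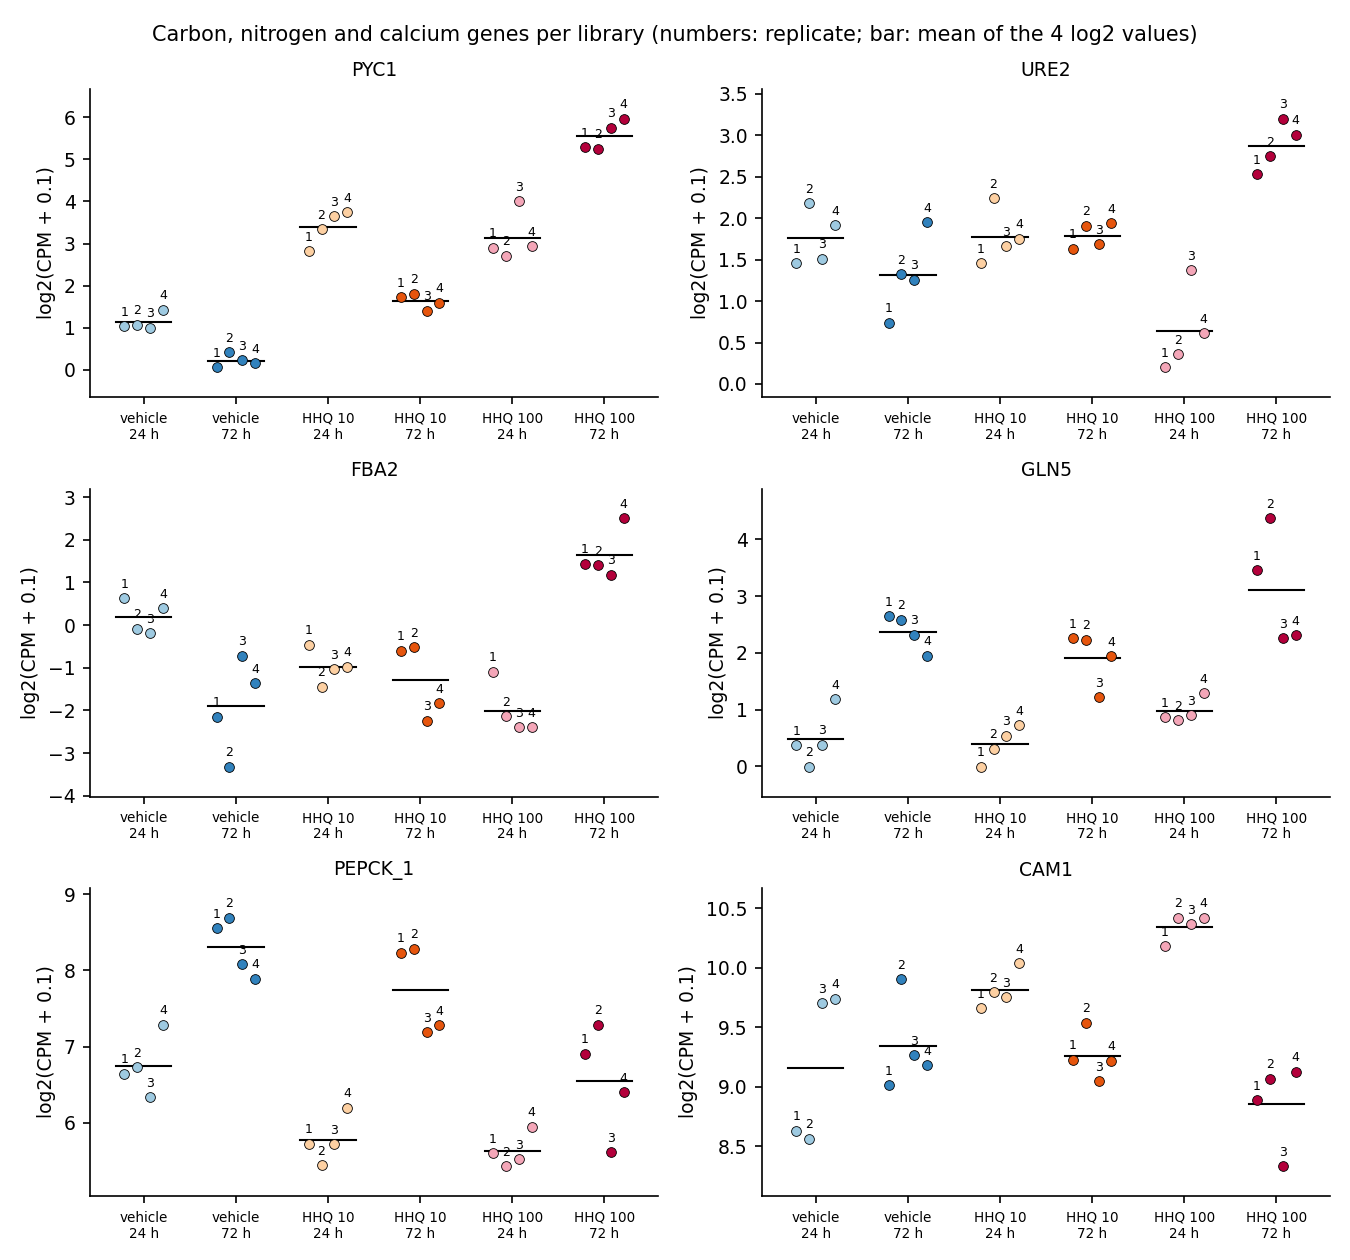
Levels of PYC1, URE2, FBA2, GLN5, PEPCK_1 and CAM1 per library as log2(CPM + 0.1), with the replicate number above each point and a bar at the mean of the 4 log2 values. At 100 ng/ml all 72 h libraries (dark red) lie above all 24 h libraries for PYC1, URE2 and FBA2 and below them for CAM1, and in PEPCK_1 replicates 1 and 2 lie above replicates 3 and 4 at 72 h in each of the 3 treatments.

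The light-harvesting genes stayed low, and some fell further. Of 78 tested Lhcf genes 11 fell and 1 rose (3.08% and 4.76% of all genes), with a median of −0.38 against −0.05 for all genes (−0.32 with DESeq2's size factors and −0.44 with library totals). In the vehicle 2 fell and 2 rose over the same time (3.19% and 3.92% of all genes), with a median of −0.24. At an unadjusted p under 0.05 in edgeR, 24 were lower there and 26 at 100 ng/ml. With library totals 33 fell in the vehicle and 9 at 100 ng/ml, and by DESeq2 14 and 13. Many Lhcf genes are similarly named copies whose sequences were not compared here. Reads may be divided between them, so single copies are uncertain. Lhcf39_2 was at 200, 187, 147 and 105 CPM at 24 h and at 85.5, 72.0, 58.7 and 73.6 CPM at 72 h (−1.14 ± 0.20, adjusted p = 4.06e-04). All 72 h libraries were below all 24 h libraries. Lhcf34_2, Lhcf12_2, Lhcf45_2 and Lhcf44 fell by 1.57, 1.18, 1.04 and 1.03 on the log2 scale, also without overlap, and none of these 4 was called with replicates 3 and 4 alone at 72 h. Lhcf44 also lost the call with library totals (adjusted p = 0.137), with limma-voom (adjusted p = 0.053) and in most fits without 1 library. Lhcf38, the member that rose (1.83 ± 0.53), rose in the vehicle and at 10 ng/ml too.

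Lhcf32, followed whatever its change, stood at 2410, 2380, 3660 and 3110 CPM at 24 h and at 2580, 2620, 2600 and 4430 CPM at 72 h, with overlapping groups (0.08 ± 0.26, adjusted p = 0.89). It was 3.56 ± 0.29 lower on the log2 scale than in vehicle cultures of the same time both at 24 h and at 72 h. Lhcf65 and Lhcf74 were likewise not called (adjusted p = 0.934 and 0.508). Together the Lhcf genes took 3.92%, 3.76%, 4.61% and 3.46% of all counts at 24 h and 2.53%, 2.29%, 3.68% and 4.29% at 72 h. The difference of means was −0.738 percentage points, with an exact two-sided permutation p of 0.229, where the smallest that 4 against 4 libraries allow is 0.0286. The share was 13.5% ± 0.621 in the vehicle at 24 h and 9.77% ± 0.992 at 72 h.

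At 10 ng/ml the same family went the other way with time: 15 members rose and 3 fell (5.33% and 7.01% of all genes), with a median of 0.45, which became −0.08 with library totals, where the median of all genes was −0.52. The interaction against 10 ng/ml was called lower for 19 of 78 members and higher for 0 (3.02% of all genes lower), for 4 lower with library totals and for 39 with the block within each time (32 with a block over both times). With replicates 3 and 4 alone at 72 h it was called lower for 3 members and higher for 1 (median −0.455). Replicates 1 to 3 at 24 h against these 72 h replicates also gave 3 lower and 1 higher. At 10 ng/ml itself 5 members rose and 2 fell with replicates 3 and 4 alone at 72 h. Lhcf39_2 gave a difference of −2.42 ± 0.29 (adjusted p = 5.38e-07), and Lhcf25_1 and Lhcf25_2, similarly named copies, gave −1.52 ± 0.32 and −1.57 ± 0.31. Against the vehicle 1 member was called higher and 2 lower (2.65% of all genes lower), and the latter became 11 and 6 with these blocks. The count of members that fell at 100 ng/ml depended on the libraries: it was 10 with replicates 1 and 2 alone at 72 h, 1 with replicates 3 and 4 alone, and between 3 and 10 when 1 library was left out.

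**Figure D5:**
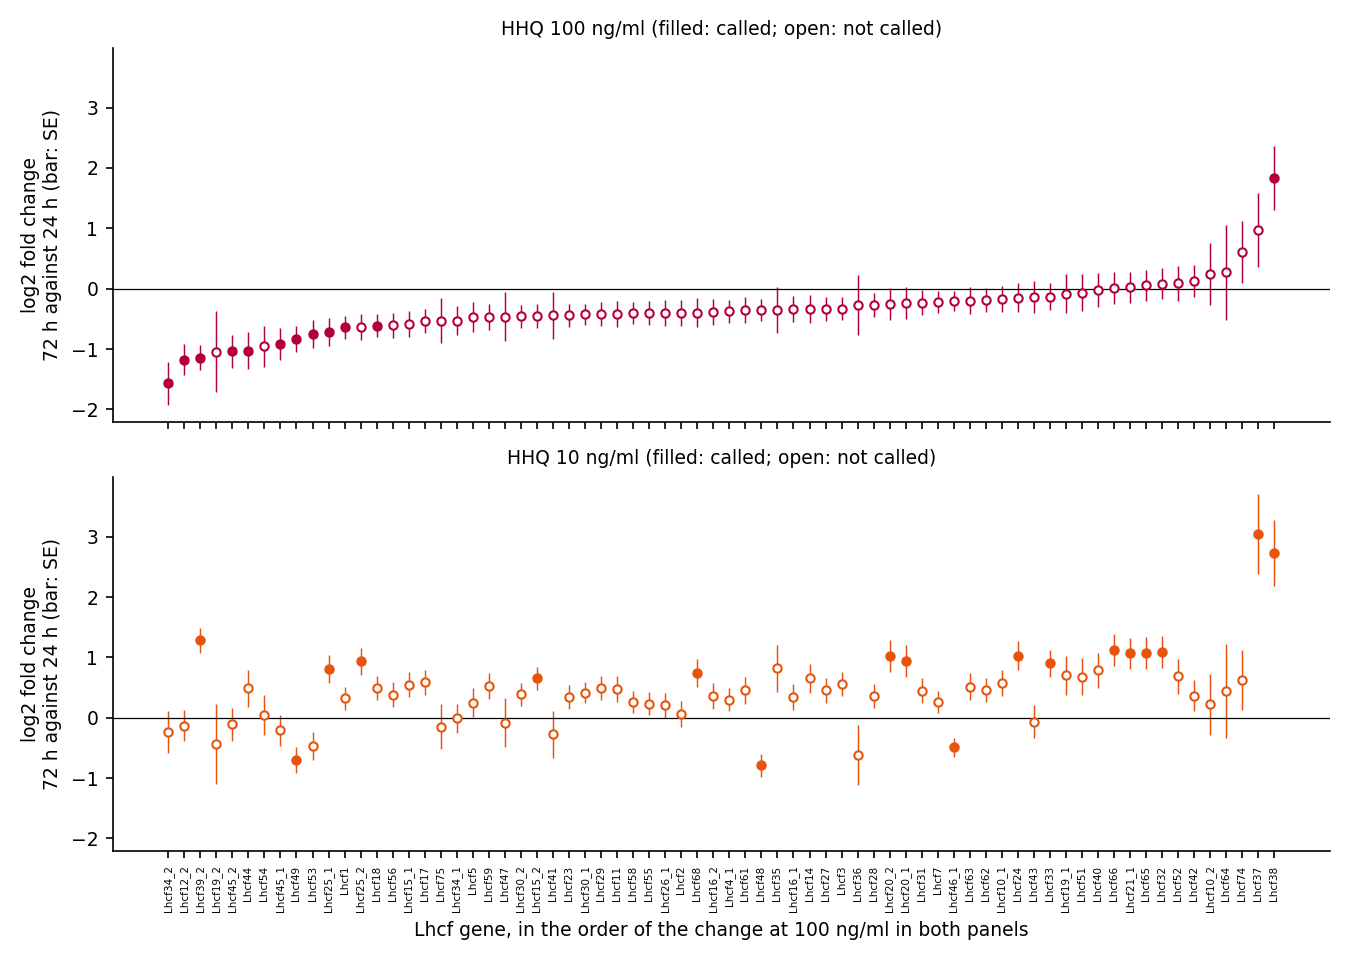
Log2 fold change of 72 h against 24 h with its SE for 70 of the 78 tested Lhcf genes (those averaging 1 CPM or more in the 8 libraries, with counts at 72 h), ordered by the change at 100 ng/ml HHQ (top) and drawn in the same order for 10 ng/ml (bottom), filled where called. Most points lie below 0 in the upper panel and above 0 in the lower one; with library totals as the scale the median of the lower panel's family turns to −0.08.

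Of 12 photosystem and pigment genes 1 was called lower (3.08% of all genes), UROD1, for the uroporphyrinogen decarboxylase of tetrapyrrole synthesis, from 145, 156, 146 and 87.1 CPM to 61.6, 55.2, 105 and 118 CPM (−0.65 ± 0.21, adjusted p = 0.0459). Its groups overlapped, with replicate 4 low at 24 h and replicates 1 and 2 low at 72 h. The call was lost with DESeq2's size factors, with library totals, without the filter and when any of 5 single libraries was left out, and with replicates 3 and 4 alone at 72 h the change was −0.25 (adjusted p = 0.628).

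Among the genes that fell, several stood above the vehicle at 24 h; that comparison shares its libraries with the change over time. CAM1, for calmodulin, the calcium sensor of eukaryotic cells, was at 1160, 1370, 1320 and 1370 CPM at 24 h and at 473, 536, 322 and 559 CPM at 72 h. It fell 2.76-fold without overlap (−1.47 ± 0.28, adjusted p = 8.71e-04), and the difference from the vehicle's change was −1.58 ± 0.39 (adjusted p = 0.0104), not called with replicates 3 and 4 alone at 72 h (−1.44, adjusted p = 0.0886). That difference was not called with replicates 1 and 2 alone at 72 h either (−1.57, adjusted p = 0.0786). A fit of only the groups compared also lost it (−1.43, adjusted p = 0.0724). Against vehicle cultures of the same time CAM1 stood at 1.08 ± 0.28 at 24 h and at −0.50 ± 0.28 at 72 h (adjusted p = 0.138). ADF, for the actin-depolymerizing factor that severs actin filaments, fell from 1330 ± 179 to 562 ± 63.3 CPM (−1.24 ± 0.25). It fell at 10 ng/ml as well (−1.35 ± 0.25), and the difference of changes was called against the vehicle (−1.22 ± 0.35, adjusted p = 0.0323) and not against 10 ng/ml (0.11 ± 0.35).

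STXPM-2, named for a syntaxin, a fusion protein of the plasma membrane, was at 46.8, 56.5, 52.8 and 42.0 CPM at 24 h and at 17.5, 12.5, 26.8 and 24.1 CPM at 72 h (−1.29 ± 0.24, adjusted p = 7.09e-04). All 72 h libraries were below all 24 h libraries, and both differences of changes were called (−2.08 ± 0.34 against the vehicle and −1.65 ± 0.34 against 10 ng/ml). COPZ1-1, for a subunit of the COPI vesicle coat, fell by 0.90 on the log2 scale. VPS34-2, for a phosphatidylinositol 3-kinase, was at −0.50 and MVK2, for mevalonate kinase, at −0.48, and both calls were lost with DESeq2's size factors (adjusted p = 0.08 and 0.0729) and with library totals (0.436 and 0.281). With replicates 3 and 4 alone at 72 h VPS34-2 was not called either (adjusted p = 0.309). VPS34-2 also lost the call when any single library at 100 ng/ml was left out (adjusted p = 0.0548 to 0.151). MVK2 lost it in all of these fits but that without 72 h replicate 2 (adjusted p = 0.0503 to 0.131). CMPDT fell from 49.4 ± 4.67 to 25.7 ± 4.40 CPM (−0.94 ± 0.15). For vesicle coats, SNAREs and tethers, and ESCRT and sorting genes, 1 of 40, 1 of 47 and 1 of 19 members were called, all lower, shares near the 3.08% of all genes.

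The V-type ATPase, the proton pump of vacuoles and endosomes, fell in 4 of 20 tested genes (3.08% of all genes), with a median of −0.42. ATPVc/c, one of several similarly named genes of its membrane ring, was at 100, 96.2, 91.0 and 49.3 CPM at 24 h and at 44.6, 49.1, 68.8 and 60.4 CPM at 72 h (−0.60 ± 0.17, adjusted p = 0.0297). Replicate 4 at 24 h lay within the 72 h values. ATPVc/c'3 and ATPVc'2 fell by 0.64 and 0.67 on the log2 scale with the same exception. In the vehicle 7 of the 20 genes fell over the same time (3.19% of all genes), also with a median of −0.42, and edgeR called 0 interactions against either treatment (1 and 0 at an unadjusted p under 0.05, and 1 against the vehicle by DESeq2). The count of 4 became 11 with replicates 1 to 3 alone at 24 h and 0 with replicates 3 and 4 alone at 72 h. ATPVc/c, ATPVc/c'3 and ATPVc'2 each lost the call with library totals (adjusted p = 0.257, 0.162 and 0.306). Each also lost it when any 1 of 24 h replicates 1 to 3 or 72 h replicates 1 and 2 was left out.

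In the actin list 3 of 17 genes rose and 1, ADF, fell (4.76% and 3.08% of all genes). ACT-5, an actin gene, went from 1.14, 1.44, 1.36 and 2.23 CPM to 12.8, 15.9, 2.33 and 5.10 CPM (2.53 ± 0.62), with replicates 1 and 2 above replicates 3 and 4. Within replicates 3 and 4 alone it was not called (1.24). ARPC3, for a subunit of the Arp2/3 complex that branches actin filaments, rose from 5.57 ± 1.03 to 9.22 ± 0.590 CPM (0.73 ± 0.18), and both differences of changes were called. CCX1, named for a cation and calcium exchanger, rose from 4.15, 4.18, 5.03 and 4.20 CPM to 6.61, 6.29, 7.72 and 8.21 CPM (0.72 ± 0.18) and fell in the vehicle (−0.73 ± 0.19). Neither ARPC3 nor CCX1 was called with library totals (adjusted p = 0.205 and 0.371). Both calls were also lost in 24 h replicates 1 to 3 against 72 h replicates 3 and 4 (adjusted p = 0.0709 and 0.0515). CCX1 lost its call with replicates 1 and 2 alone at 72 h as well (adjusted p = 0.0586).

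In the glutathione and antioxidant list 2 of 22 genes fell (3.08% of all genes). GGCT2, for a gamma-glutamylcyclotransferase of glutathione breakdown, went from 1.61 ± 0.368 to 0.542 ± 0.108 CPM (−1.54 ± 0.41), and MSRA2, for a methionine sulfoxide reductase, fell by 0.71 on the log2 scale with overlapping groups. Neither was called with replicates 3 and 4 alone at 72 h (adjusted p = 0.196 and 0.0917). Lipocalin, named for a family of small lipid-binding proteins, rose from 0.184, 0.127, 0.227 and 0.804 CPM to 3.72, 3.49, 1.47 and 1.67 CPM (2.86 ± 0.74, adjusted p = 0.0131; 0.0716 with replicates 3 and 4 alone at 72 h). ECH2 rose by 2.97 ± 0.70, but replicate 3 at 72 h, at 0.319 CPM, lay within the 24 h range of 0.246 to 0.566 CPM, and with replicates 3 and 4 alone at 72 h the change was 0.65 and not called.

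Some genes that had differed between 100 ng/ml HHQ and the vehicle in earlier results of these data were followed over time whatever their change. PKS5, a polyketide synthase gene of the family that builds carbon chains from acyl units, stood at 67.2 ± 6.24 and 42.3 ± 5.28 CPM (−0.67 ± 0.29, adjusted p = 0.167). All 72 h libraries were below all 24 h libraries, and the vehicle stood at 3.08 ± 1.22 and 2.94 ± 0.686 CPM. Of the 10 tested polyketide synthase genes 2 rose (4.76% of all genes), PKS1 by 1.06 ± 0.28 and PKS9 by 0.87 ± 0.24. Neither of them was called with replicates 3 and 4 alone at 72 h (adjusted p = 0.141 and 0.117). The small GTPase genes Arf4-1 and Arf4-2, regulators of vesicle budding, were called higher at 72 h. Reads may be divided between these similarly named copies, so the value of each is uncertain. Arf4-1 was at 212, 245, 251 and 228 CPM and then at 409, 458, 301 and 455 CPM (0.80 ± 0.24, adjusted p = 0.0336), and Arf4-2 at 0.94 ± 0.24. Neither was called with replicates 3 and 4 alone at 72 h (adjusted p = 0.203 and 0.122), and Arf4-1 lost the call with limma-voom (adjusted p = 0.0642) and when any of 5 single libraries was left out. Their differences of changes were not called, except for Arf4-1 against 10 ng/ml with the block within each time (0.69, adjusted p = 0.0458). VPS34-1 was at 3.57 ± 0.567 and 4.56 ± 1.26 CPM and not called (adjusted p = 0.515).

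The fatty acid desaturase genes FADS1 and FADS2, which put double bonds into acyl chains, diverged from the other treatments without a called change of their own. FADS1 was at 142, 153, 122 and 67.0 CPM at 24 h and at 164, 140, 216 and 194 CPM at 72 h (0.56 ± 0.20, adjusted p = 0.0724). It fell in the vehicle by 1.03 and at 10 ng/ml by 1.32 on the log2 scale, and the differences of changes were 1.59 ± 0.28 (adjusted p = 3.27e-04) and 1.88 ± 0.28 (adjusted p = 1.59e-05). FADS2 gave 1.55 ± 0.31 and 1.88 ± 0.31. CA1, for a carbonic anhydrase, was at 7.51 ± 1.54 and 15.2 ± 4.11 CPM, without overlap but not called (1.02 ± 0.52, adjusted p = 0.239).

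Some of the largest changes fell on genes without a symbol, known here by identifier only. EMIHUDRAFT_417127 went from 0.307, 0.634, 0.499 and 0.0596 CPM to 6.06, 8.04, 14.7 and 22.8 CPM (5.14 ± 0.71, adjusted p = 1.43e-05), and it fell at 10 ng/ml (−2.01 ± 0.64). EMIHUDRAFT_471253 had 9 counts over the 4 libraries at 24 h and 311 at 72 h (4.86 ± 0.92). EMIHUDRAFT_444926 had 5 counts at 24 h and 1576 at 72 h, and stood at 24.2, 27.9, 3.46 and 6.96 CPM at 72 h. Downward, EMIHUDRAFT_221800 was at 3.01, 3.89, 1.77 and 1.55 CPM and then at 0.375, 0.374, 0.466 and 0.743 CPM (−2.38 ± 0.35, adjusted p = 2.85e-05), against a rise at 10 ng/ml of 1.01 ± 0.31. EMIHUDRAFT_254944 and EMIHUDRAFT_446750 fell by 2.12 and 1.86 on the log2 scale, the latter not called with replicates 3 and 4 alone at 72 h (adjusted p = 0.12). None of these 6 overlapped between the times.

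Of the 661 tested genes with a symbol 92 changed (13.9%), 54 higher and 38 lower, against 7.84% of all tested genes. All list members carry a symbol. The shares of all genes set beside the lists, higher and lower, are thus below those among genes with a symbol. Besides the lists named above, 2 of 31 small GTPase genes and 1 of 19 calcium and ion transport genes rose (4.76% of all genes), and 1 of 11 isoprenoid genes fell (3.08%). In the lists for fatty acid synthesis and desaturation (10 tested), aldehyde dehydrogenases (9), inorganic carbon and coccolith genes (8) and the urea cycle (6), edgeR called 0 members at 100 ng/ml. At an unadjusted p under 0.05 there were 3, 0, 2 and 0 of them, and DESeq2 called 2 in the fatty acid list and 0 in the others.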

How the data were processed

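The report uses a table of estimated counts per gene for 36 libraries in 9 groups of 4. The authors deposited these estimated counts unscaled; per the submitters' processing notes reads were trimmed with Trimmomatic 0.38 and quantified with Salmon 0.12.0, and the reference transcripts and settings are not given in these sources. Of the values 45.8% were not whole (tolerance 1e-09), so counts were rounded. The labels name CCMP1516, the reference strain, as organism, while the cultures were CCMP2090. Of 37212 genes in the table, 33295 had at least 1 count, 778 carry a symbol and 37202 identifiers matched the RefSeq gene table.

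Genes were filtered with filterByExpr, leaving 26494, scaled by the trimmed mean of M values (factors 0.49 to 2.13), and tested with edgeR 4.0.16 in R 4.3.3: quasi-likelihood F tests in 1 fit with 1 mean per group, without a replicate block, and Benjamini-Hochberg adjustment over all genes. An SE is the log2 fold change divided by the square root of F. An interaction is the difference of 2 changes over time. The Lhcf share was compared by an exact permutation test. Counts set the precision: genes with few counts have wide errors, and counting error is in the fitted spread. P-values weigh a change against the spread between libraries of the same group, estimated over all 9 groups together. They treat the libraries of a group as independent, although the replicates fell into sets, and the effect of that was not tested. The scripts were tested on simulated counts.

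Among genes that carry a symbol the text names the 10 that rose and the 10 that fell most (called, at least 1 CPM on average, no overlap), up to 3 genes of each list with a called member, up to 3 identifiers each way, the 5 highest and lowest interactions, and a set of genes followed whatever their change. PYC, POLE3, RFC2, POLD2, POLD1-2, DMC1, Spo11, LIG, Top6B, NRT1, GLN4 and other list members outside this rule were named after their values were seen. Some genes are not reported here. Members and lists were chosen with earlier results of these data known. Within a time, same-numbered libraries at 100 and 10 ng/ml deviated together, with correlations of 0.12 to 0.422 at 24 h and 0.134 to 0.45 at 72 h in all 4 pairs, a pairing read from the data; against the vehicle they ranged from 0.0137 to 0.448 and from 0.0248 to 0.318. A replicate block within each time was therefore added for the interactions, over the 32 libraries other than the parents. Alternatives were other scaling, filters, tests (DESeq2 1.42.0, limma 3.58.1), replicate blocks and left-out libraries.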

Additional observations from a re-analysis of the deposited data

Results flagged for a closer look

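Among 146 sets of 4 libraries checked for the genes named, 13 held a library far from the other three by Dixon's criterion, where chance gives about 1 in 20. At 24 h the highest library stood apart for URE1 (0.181 CPM), FBA2 (0.369 CPM), RFC5 (1.31 CPM), Lipocalin (0.804 CPM), PYC1 (16 CPM), GLN5 (2.35 CPM), CCX1 (5.03 CPM) and ECH2 (0.566 CPM), and the lowest for UROD1 (87.1 CPM). At 72 h the highest stood apart for FBA2 (5.57 CPM), EMIHUDRAFT_254944 (1.02 CPM) and Lhcf32 (4430 CPM), and the lowest for POLE1 (3.81 CPM).

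Some changes over time differed between treatments by the interaction test in edgeR. Against the vehicle the log2 difference of changes was 6.33 for FBA2, 4.34 for MAN1, 3.69 for POLA2, 3.68 for RFC5 and 3.35 for PYC1. It was −2.08 for STXPM-2, −1.58 for CAM1, −1.52 for Lhcf44 and −1.44 for AMT13. Against 10 ng/ml it was 6.74 for RFC3, 5.97 for POLD1-1, 5.88 for POLE1 and 5.80 for POLA1. It was −2.42 for Lhcf39_2, −1.65 for STXPM-2, −1.57 for Lhcf25_2, −1.52 for Lhcf25_1 and −1.51 for Lhcf44. Both calls of Lhcf44 were lost with replicates 3 and 4 alone at 72 h (adjusted p = 0.269 and 0.293) and without any of several single libraries. With library totals as the scale Lhcf44 and STXPM-2 lost both calls, and AMT13 lost its call against the vehicle.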

How the results depend on the processing

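The count of 2076 genes called over time became 1024 with library totals, 203 with a minimum change of 1 on the log2 scale and 3217 with DESeq2. With subsets of libraries it was 3305 (replicates 1 to 3 alone at 24 h), 4368 (replicates 1 and 2 alone at 72 h) and 1316 (replicates 3 and 4 alone at 72 h). In 2 alternatives chosen after seeing the data it was 1164 (24 h replicates 1 to 3 against 72 h replicates 3 and 4) and 62 (24 h replicate 4 against 72 h replicates 1 and 2). Leaving out 1 library gave 1151 to 2510. Of the called genes 60.7% were higher, against 77.3% with library totals and 69.8% with DESeq2's size factors. The interaction counts of 1597 (vehicle) and 2090 (10 ng/ml) became 205 and 578 with the minimum change and 55 and 164 in the last subset, the first became 2504 with DESeq2, and they became 3087 and 3650 with the replicate block within each time, also chosen after seeing the data. Leaving out 1 library gave 1248 to 1658 and 1632 to 2069. The Lhcf share difference ranged from −1.10 to −0.436 points without 1 library. Beyond fewer libraries or a stricter threshold, the cause was not tested.

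Lhcf32, Lhcf65 and Lhcf74, none of them called, changed sign in 72 h replicates 1 and 2 alone (−0.112, −0.145 and −1.15), in 24 h replicate 4 against them (−0.218, −0.304 and −1.13) and without 72 h replicate 4; leaving out 1 library gave −0.124 to 0.229, −0.128 to 0.207 and −0.31 to 1.09. Lhcf65 did so too with library totals (−0.00942) and without 24 h replicate 2 (−0.0402). Of 75 called gene results, 26 lost the call with library totals, 27 in 72 h replicates 3 and 4 alone, 25 and 60 in the 2 added subsets, and 3 to 18 when 1 library at 100 ng/ml was left out.

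The replicate numbers did not pair the times: same-numbered libraries at 24 and 72 h correlated at −0.116, −0.172, 0.325 and −0.374, and only replicate 3 matched its own number best. With the number as a replicate block over both times, 2604 genes were called over time and 1974 and 2429 in the interactions, no called gene result was lost, and the Lhcf share difference stayed at −0.738 points.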
